A study of Mus musculus with 148 samples.

Results

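The genes described here are Fn1, Vcan, Thbs1 and F13a1, 4 of the 52634 gene rows in the count tables of a single-cell atlas of immune cells in breast cancer lung metastasis. They were picked by name as secreted matrix genes that monocytes express, and their levels were followed along the monocyte and macrophage subpopulations and across tissues. Female PA-GFP C57BL/6 mice, 8 weeks old at injection, received EO771-tdTomato breast cancer cells in the mammary gland, and tumors were removed 3 weeks later. PA-GFP is a photoactivatable reporter, so that host cells lit in a chosen niche can be sorted. The groups were control lungs (labelled normal), Pre-MET lungs taken while the primary tumor was in place and before lesions were seen, relapse-free lungs without later metastasis, primary tumors, and, from metastatic lungs, distal normal tissue, metastasis sections, photoactivated metastasis core and photoactivated invasive margin. A sample is 1 mouse and tissue, and there were 3 control, 6 relapse-free, 3 Pre-MET, 4 primary tumor, 14 distal normal, 13 metastasis, 13 core and 7 margin samples from 27 mice. Cells were sorted as CD45+ and CD31-, or as CD31- and GFP+ after photoactivation. The model is 1 tumor line in 1 mouse strain, and the margin sample of mouse 17 carries a non-metastatic photoactivation target in the labels.

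Monocytes that enter inflamed tissue secrete matrix components, and these shape the scaffold on which other cells adhere and migrate. Fn1 encodes fibronectin, a large adhesive glycoprotein bound by integrins. Vcan encodes versican, a proteoglycan that binds hyaluronan, and Thbs1 encodes thrombospondin-1, which binds CD36 and CD47 and can activate latent TGFβ. F13a1 encodes the A subunit of coagulation factor XIII, a transglutaminase that crosslinks fibrin and also fibronectin. Platelets carry thrombospondin-1 and factor XIII and fibroblasts make fibronectin and versican, so markers of both were read in the same sums.

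Values are unique molecular identifiers (UMIs, 1 for each captured mRNA molecule) added up over all cells of a subpopulation or lineage in 1 mouse and tissue, where at least 10 cells were found, and expressed per 1000000 UMIs of the sum (CPM). There were 62 monocyte sums, of 13639 to 1107442 UMIs, and 40 macrophage sums, of 12757 to 733636 UMIs. All 10 monocyte markers were detected in the monocyte sums, together at 18204 to 56143 CPM. Platelet markers together reached at most 159 CPM in a monocyte sum, with a median of 5.83 CPM, and Gp9, Gp1ba, Gp5, Treml1 and Tubb1 were at 0 in every one. Fibroblast markers together had a median of 0 CPM and a maximum of 65.4 CPM in monocytes. In macrophages the platelet list reached 5235 CPM while Gp9, Gp1ba, Gp5, Gp6 and Tubb1 were at 0 in all 40 sums. Lower CPM in a sum cannot be told apart between fewer expressing cells and less mRNA per cell. The shares of cells given below are averaged over tissues and also depend on the mRNA per cell, so they do not settle this.

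In GRCm38 (mm10), Fn1 spans chr1:71585520-71653200 on the minus strand, Thbs1 spans chr2:118111876-118127133 on the plus strand, and both Vcan (chr13:89655312-89742509) and F13a1 (chr13:36867178-37050244) lie on the minus strand of chromosome 13. All 4 are protein-coding, and 3′ reads were counted per gene, so isoforms were not separated. The RefSeq promoter table (GRCm38.p6) held 1 start for Vcan and 2 for F13a1, of which the one nearest the annotated start of the gene was used. It held no start for Fn1 or Thbs1, so only the 250 bases before the Vcan start and this F13a1 start are shown. The levels of these genes had a Spearman's rho of 0.64 over the sums described below. Capitals mark matches, on either strand, to GGGCGG (GC box, in 32.7% of all promoters of this length), GAGGAAG (PU.1, in 10.6%), TGANTCA (AP-1, 6.75%), TGACGTCA (CRE, 1.55%), TTGCNNAA (C/EBP, 9.56%), CACGTG (E-box, 6.02%), TATAAA (in 12.4%, the core promoter box of that name), the NF-kB motif (17.6%) or the interferon response motif (2.98%).
Vcan, chr13:89742513-89742762, minus strand: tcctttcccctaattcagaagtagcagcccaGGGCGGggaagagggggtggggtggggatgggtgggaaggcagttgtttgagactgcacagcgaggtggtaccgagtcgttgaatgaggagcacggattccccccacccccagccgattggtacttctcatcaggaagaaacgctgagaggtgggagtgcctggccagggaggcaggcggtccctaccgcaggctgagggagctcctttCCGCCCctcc
F13a1, chr13:37050245-37050494, minus strand: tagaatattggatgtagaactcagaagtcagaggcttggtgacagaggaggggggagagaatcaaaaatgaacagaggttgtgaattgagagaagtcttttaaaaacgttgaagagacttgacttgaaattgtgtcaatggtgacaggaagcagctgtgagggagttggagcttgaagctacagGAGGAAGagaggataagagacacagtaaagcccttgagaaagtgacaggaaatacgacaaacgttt
The Vcan window was 62.4% G or C and held 2 GC boxes, and the F13a1 window was 42.8% G or C and held 1 match to the PU.1 letters, at 66 to 60 bases before the start (-66 to -60). None of the other motifs matched in either window. A match describes the letters and is not evidence of binding.

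Along the authors' subpopulations, each gene was highest in 1 of the monocyte groups Mon Fn1 and Mon Thbs1. Because these groups were clustered on the same cells and 2 of them carry the name of a gene described here, the levels across subpopulations are a description without a test. Fn1 was highest in Mon Fn1 cells at 1027 ± 493 CPM (SD, n = 54 sums), followed by Mon Thbs1 at 536 ± 380 CPM (n = 25). The next were Mac Gpnmb, which the study calls regulatory macrophages, at 424 ± 439 CPM (n = 14), and Mac Cd9, the alveolar macrophages, at 318 ± 158 CPM (n = 11). These means pool tissues that hold the subpopulations in different shares, and within the same sample Fn1 was higher in Mac Isg20 than in Mac Gpnmb cells in 5 of 9 samples. Fn1 was lowest in Mon MHC-II at 133 ± 205 CPM (n = 23), next to Mac Cd81 at 134 ± 158 CPM (n = 9). The Mac Cd81 mean joined 5.86 ± 6.82 CPM in 4 primary tumor sums with 218 ± 85.4 CPM in 2 metastasis and 249 ± 189 CPM in 3 core sums. All macrophages of the primary tumors held 13 UMIs of Fn1 in 1968783. No neighbours in this order were separated by more than the larger of their 2 SDs.

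F13a1 had the same leading subpopulation, with 778 ± 334 CPM in Mon Fn1 cells and 346 ± 229 CPM in Mon Thbs1 cells, a gap of 1.30 of the larger SD. It was at 279 ± 181 CPM in Mac Isg20 cells (n = 15), between 91.3 and 136 CPM in Mon MHC-II, Mac Gpnmb, Mon Ace and Mac Cd81 cells, and lowest in alveolar macrophages at 21.1 ± 42.3 CPM. Within the same sample, F13a1 was higher in Mon Fn1 than in Mon Thbs1 cells in 19 of 22 samples, and Fn1 in 16 of 22.

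Thbs1 was highest in Mon Thbs1 cells at 1569 ± 936 CPM, ahead of Mon Fn1 at 661 ± 461 CPM and Mac Isg20 at 566 ± 349 CPM. The order was the opposite of Fn1 within samples, since Thbs1 was higher in Mon Thbs1 than in Mon Fn1 cells in 19 of 22. Alveolar macrophages held 4.85 ± 9.44 CPM of Thbs1, 1.24 of the larger SD below Mac Cd81 at 89.2 ± 68.2 CPM. Vcan was close in both groups, at 619 ± 410 CPM in Mon Thbs1 and 501 ± 318 CPM in Mon Fn1 cells, and each was the higher of the pair in 11 of 22 samples. Among macrophages Vcan was at 289 ± 261 CPM in Mac Isg20 cells and at 24.6 CPM or less on average in Mac Cd81, Mac Gpnmb and alveolar macrophages. In the regulatory macrophages Thbs1 was at 225 ± 154 CPM, with none of 14 sums at 0, and F13a1 at 136 ± 168 CPM, while Vcan was at 15.5 ± 28.8 CPM with 9 of 14 sums at 0. Their Thbs1 mean was 415 CPM over the 24 sums of at least 5 cells. Mon Ace cells, the patrolling type, were below Mon Fn1 cells of the same sample in 30 of 31 samples for Fn1, 29 for Vcan, 28 for Thbs1 and 31 for F13a1.

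**Figure D1:**
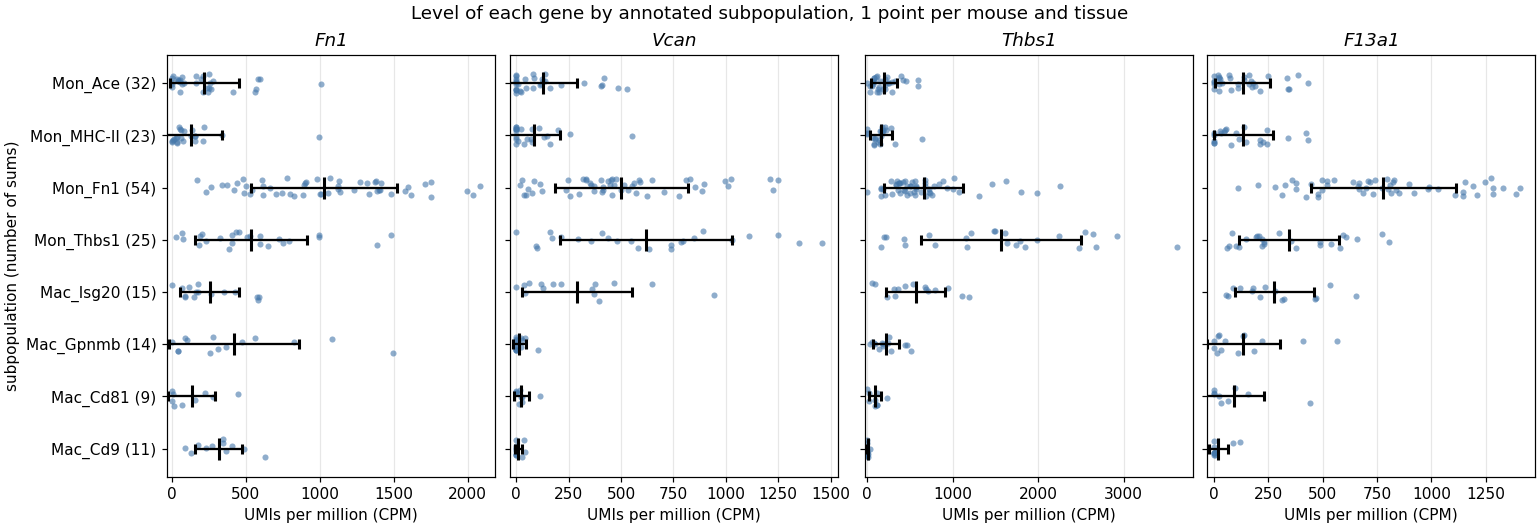
Level of Fn1, Vcan, Thbs1 and F13a1 (x axis, UMIs per 1000000, linear) in 4 monocyte and 4 macrophage subpopulations (y axis, number of sums in brackets); each point is 1 mouse and tissue, the vertical bar the mean and the whiskers 1 SD. Fn1 and F13a1 have their highest means in Mon_Fn1 cells (1027 and 778 CPM), Thbs1 and Vcan in Mon_Thbs1 cells (1569 and 619 CPM), and the points of most subpopulations overlap.

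The share of cells with at least 1 UMI was compared after thinning every cell to 500 UMIs. In Mon Fn1 cells, which had a median of 1503 UMIs before thinning, Fn1 was seen in 28.7% ± 12.4 of cells (SD, n = 54 samples), F13a1 in 25.0% ± 12.2, Thbs1 in 19.4% ± 9.11 and Vcan in 14.5% ± 9.25. In Mon Thbs1 cells (median 1744 UMIs, n = 25) the shares were 33.0% ± 17.9 for Thbs1, 18.5% ± 12.6 for Vcan, 14.2% ± 8.64 for Fn1 and 13.99% ± 9.65 for F13a1. The background in T cells, which should lack these genes and had a median of 996.5 UMIs, was between 0.264% and 0.372% for each gene. Without thinning the T cell values were between 0.621% and 1.16%, and the Mon Fn1 values were 48.7% for Fn1 and 30.4% for Vcan. Any of the 4 genes was seen in 57.2% of 3053 thinned Mon Fn1 cells and in 58.6% of 1109 thinned Mon Thbs1 cells. Fn1 and F13a1 were seen together in 9.37% of Mon Fn1 cells against 6.80% for independent detection, and Vcan and Thbs1 in 10.7% of Mon Thbs1 cells against 8.17%. Every other pair also lay above independent detection in both groups, such as Fn1 and Vcan in Mon Fn1 cells at 5.24% against 3.83%. The cells were pooled over mice and tissues with different levels, so nothing is read from the excess.

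Among neutrophils and lymphocytes, only Thbs1 came near its level in monocytes (650 ± 527 CPM, SD, n = 62 sums), and only in some neutrophil groups. Neutrophils labelled PMN-MDSC held 738 ± 538 CPM of Thbs1 (n = 5 sums) and Neut Ptgs2 held 465 ± 598 CPM (n = 29), with 15.6% and 9.97% of thinned cells positive, while Fn1, Vcan and F13a1 were between 15.3 and 51.6 CPM in both. In the other neutrophil groups Thbs1 was lower, at 149 ± 180 CPM in Neut Lcn2 (n = 24), 110 ± 98.2 CPM in Neut Ifit3 (n = 16) and 217 ± 361 CPM in Neut Camp (n = 4). T cell subpopulations had mean levels of at most 20.1 CPM for any of the genes.

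Over the 183 sums of the 8 subpopulations, the genes whose levels ranked most like Fn1 among 3467 genes were F13a1 (Spearman's rho 0.65 of log2 of CPM plus 10), Chil3 (0.62) and Anxa1 (0.56). For Vcan they included Thbs1 (0.73) and Ly6c2 (0.67), the marker of inflammatory monocytes. For Thbs1 they included Vcan and Ly6c2 (0.59), and for F13a1 I830127L07Rik (0.71) and Ly6c2 (0.68). Fn1 and Thbs1 were the least alike of the 6 pairs, at 0.44. The sums share libraries and mice and the subpopulations differ in size, so these values are a description.

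The first comparison across tissues asked whether lungs differ before metastases appear. In all monocytes of a lung, the 4 genes were higher in Pre-MET than in control lungs, and for each of them the 3 Pre-MET mice lay above the 3 control mice. The share of all genes that separate in this way was not counted. A lack of overlap is therefore a description, here and below. Of 4953 genes tested, 4.32% were called at an adjusted p below 0.05, 2.30% higher and 2.02% lower in Pre-MET. Vcan was at 5.98, 8.22 and 13.9 CPM in control and at 195, 217 and 259 CPM in Pre-MET mice. The groups were far apart, with 5 UMIs of Vcan in 554956 control UMIs and 301 in 1359472 Pre-MET UMIs. The log2 fold change was 4.53 ± 0.49 (SE; edgeR quasi-likelihood test, adjusted p = 8.36e-05). The filter on low counts asked for at least 30.6 CPM in at least 3 sums, and Vcan passed it only through Pre-MET, where it is high, and a gene that passes in this way had to differ between the groups.

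Thbs1 was at 140, 149 and 173 CPM in control and at 414, 439 and 475 CPM in Pre-MET mice, a log2 fold change of 1.50 ± 0.24 (SE; edgeR, adjusted p = 0.00146). Replicates of this gene lay close together in both groups. Fn1 was at 169, 173 and 323 CPM in control and at 437, 525 and 808 CPM in Pre-MET mice, a log2 fold change of 1.38 ± 0.29 (SE; edgeR, adjusted p = 0.0128). F13a1 was at 194, 226 and 227 CPM in control and at 412, 430 and 544 CPM in Pre-MET mice, a log2 fold change of 1.06 ± 0.23 (SE; edgeR, adjusted p = 0.0153). The calls for Fn1 and F13a1 were lost without single mice. Fn1 had an adjusted p of 0.0699 without control mouse 2 and 0.0605 without Pre-MET mouse 9 and 0.0594 in cells of at least 1000 UMIs, over alternatives that ranged from 1.26e-06 to 0.0699, and F13a1 had 0.0509 without control mouse 3 and 0.0961 without Pre-MET mouse 8, over a range from 0.00161 to 0.0961 (all edgeR or DESeq2).

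The makeup of the monocytes differed between the same lungs. Mon Ace cells were 59.0% of monocytes in control and 22.6% in Pre-MET lungs on average, and Mon Fn1 cells were 23.8% and 69.6%. Markers of patrolling monocytes together ranged from 2955 to 3735 CPM in control and from 1406 to 1524 CPM in Pre-MET sums. Neutrophil markers ranged from 299 to 700 CPM in control and from 1204 to 2201 CPM in Pre-MET sums. Other lists were lower in Pre-MET without overlap, with macrophage markers at 4285 to 5261 CPM in control and 1380 to 1589 CPM in Pre-MET, B cell markers at 333 to 442 and 178 to 198 CPM, endothelial markers at 59.8 to 118 and 13.2 to 24.4 CPM, T cell markers at 61.7 to 132 and 24.4 to 40.4 CPM, and platelet markers at 17.9 to 20.8 and 2.38 to 12.2 CPM. Their part in the results was not tested. The control plates were the only ones of their sequencing batch, so batch and group cannot be told apart.

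With the subpopulation held fixed, edgeR called Vcan and none of the other 3 genes. In Mon Fn1 cells Vcan was at 18.5, 26.9 and 54.8 CPM in control and at 245, 255 and 334 CPM in Pre-MET mice, again without overlap, with a log2 fold change of 3.14 ± 0.58 (SE; edgeR, adjusted p = 0.0327). Of 3273 genes 0.336% were called here, 0.275% higher and 0.0611% lower, and the control value rests on 5 UMIs. The filter asked for 52.3 CPM in 3 sums, which 1 control and 3 Pre-MET sums reached, so Vcan was tested only because of its level in Pre-MET. The call was lost without control mouse 1 or 2 or any 1 of the Pre-MET mice, where adjusted p ranged from 0.0506 to 0.194, and with cells of at least 1000 UMIs (adjusted p = 0.0731). Thbs1 and F13a1 were not called in these cells, at log2 fold changes of 0.80 ± 0.34 (edgeR, adjusted p = 0.324) and 0.30 ± 0.29 (adjusted p = 0.702). Their values did not overlap between the groups, from which nothing is read. Fn1 itself ranged from 269 to 886 CPM in control and from 528 to 1002 CPM in Pre-MET mice and overlapped, at 0.43 ± 0.39 (edgeR, adjusted p = 0.672). Mon Fn1 cells were grouped on these same cells and are named for Fn1, so this fit cannot show that Fn1 is unchanged. The same holds below for Fn1 in Mon Fn1 cells and for Thbs1 in Mon Thbs1 cells. Several marker lists also moved within the Mon Fn1 sums without overlap. Their genes are not all particular to other cells. Chil3, in the alveolar list, was among the genes that ranked most like Fn1 over the monocyte and macrophage sums. Neutrophil markers together were at 166 to 576 CPM in control and 1242 to 2448 CPM in Pre-MET, alveolar macrophage markers at 967 to 1311 and 1790 to 3065 CPM, patrolling monocyte markers at 1438 to 2714 and 895 to 1149 CPM, macrophage markers at 2824 to 3637 and 992 to 1174 CPM, B cell markers at 302 to 605 and 175 to 182 CPM, and T cell markers at 40.3 to 165 and 30.4 to 32.5 CPM. Their part in the results was not tested. In Mon Ace cells, Vcan was at 0 in all 3 control sums (0 of 250151 UMIs) and between 20.2 and 80.4 CPM in the Pre-MET sums.

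**Figure D2:**
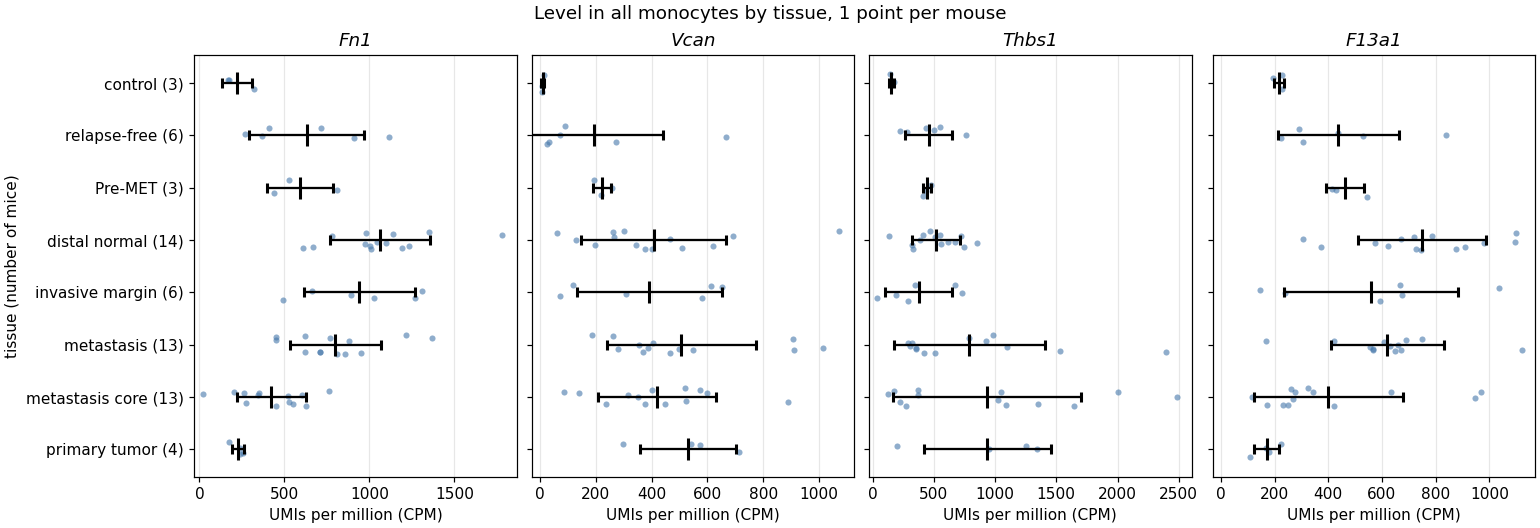
Level of the 4 genes in all monocytes (x axis, UMIs per 1000000, linear) by tissue (y axis, number of mice in brackets); points are mice, the vertical bar is the mean and the whiskers are 1 SD. Control lungs sit lowest for Vcan and Thbs1, with means of 9.35 and 154 CPM, and the primary tumors combine low Fn1 and F13a1 with high Vcan.

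Relapse-free lungs were compared with control lungs to see whether tumor history without metastasis leaves a difference. No sequencing batch held both groups, so batch and group cannot be told apart. None of the 4 genes was called by edgeR, where 0.0819% of 4884 genes passed (0.0205% higher and 0.0614% lower), 328 had an unadjusted p below 0.05 and DESeq2 called 3. The same control mice entered both comparisons, and the relapse-free mice were spread more widely than the Pre-MET mice. Vcan ranged from 25.8 to 665 CPM (median 81.3, n = 6) and did not overlap with control, at a log2 fold change of 4.41 ± 1.00 (SE; edgeR, adjusted p = 0.0990), and it passed the filter only through relapse-free lungs. Thbs1 ranged from 226 to 760 CPM (median 469) and was also above all control mice, at 1.57 ± 0.38 (SE; adjusted p = 0.148 by edgeR). Fn1 ranged from 269 to 1118 CPM (median 563), at 1.45 ± 0.40 (SE; edgeR, adjusted p = 0.315), and F13a1 from 223 to 839 CPM (median 371), at 1.04 ± 0.37 (SE; edgeR, adjusted p = 0.527). Both overlapped with control. Without relapse-free mouse 6 or 7 the Vcan call was made, with adjusted p = 0.0241 and 0.0306 by edgeR, over alternatives from 3.17e-07, without the filter on low counts, to 0.578. Mice 6 and 7 had a mean Vcan of 29.1 CPM. They shared part of their sequencing batches with Pre-MET mice 8 and 10, whose mean was 206 CPM, and with Pre-MET mouse 9, at 259 CPM. None of these batches held control plates, and the part of batch in the results was not tested. Mon Ace cells were 59.0% of control and 38.3% of relapse-free monocytes on average, and Mon Fn1 cells 23.8% and 41.6%. Patrolling monocyte markers together were at 2955 to 3735 CPM in control and 1899 to 2705 CPM in relapse-free sums, macrophage markers at 4285 to 5261 and 2388 to 4240 CPM, and B cell markers at 333 to 442 and 145 to 328 CPM, all without overlap. Their part in the results was not tested.

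Between Pre-MET lung and the distal normal tissue of metastatic lungs, the 4 genes were not called, against 4.52% of 4201 genes (0.928% higher and 3.59% lower in distal normal tissue). Fn1 ranged from 611 to 1781 CPM in distal normal tissue (median 1028, n = 14), and all 14 mice were above the Pre-MET mean of 590 CPM, but the groups overlapped, with Pre-MET mice at up to 808 CPM, and the log2 fold change was 0.72 ± 0.30 (SE; edgeR, adjusted p = 0.206). Vcan (0.79 ± 0.40, adjusted p = 0.355), F13a1 (0.58 ± 0.30, adjusted p = 0.384) and Thbs1 (0.09 ± 0.31, adjusted p = 0.933; all edgeR, SE) overlapped between the groups. DESeq2 called Fn1, with an adjusted p of 0.0343, over alternatives from 0.0343 to 0.749, and edgeR called it under none. No sequencing batch held both groups, so batch and group cannot be told apart.

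The next comparison set the lung against the primary tumor of the same stage. Fn1 and F13a1 fell and Vcan rose in monocytes of primary tumors relative to Pre-MET lungs, in a comparison where 24.8% of 7141 genes were called, 13.1% lower and 11.7% higher in the tumor. Fn1 was at 437, 525 and 808 CPM in Pre-MET mice and at 173, 236, 236 and 256 CPM in primary tumors, without overlap, and fell by 1.37 on the log2 scale (SE 0.25; edgeR, adjusted p = 0.000555). F13a1 was at 412, 430 and 544 CPM in Pre-MET lungs and at 111, 170, 180 and 223 CPM in primary tumors, without overlap, and fell by 1.42 (SE 0.27; edgeR, adjusted p = 0.000725). Vcan was at 296, 543, 572 and 711 CPM in primary tumors, above all Pre-MET mice, with a log2 fold change of 1.27 ± 0.28 (SE; edgeR, adjusted p = 0.00263).

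Thbs1 was at 203, 949, 1255 and 1344 CPM in primary tumors, where 3 of 4 mice lay above and 1 below the Pre-MET range. The log2 fold change was 1.11 ± 0.42 (SE; edgeR, adjusted p = 0.0610). The low value came from mouse 38, and without it the change was 1.46 (edgeR, adjusted p = 8.02e-05), over alternatives from 1.57e-06 to 0.227. In the 3 mice that gave both tissues, with the mouse as a block, Thbs1 was higher in the tumor of each mouse, by 1.45 on the log2 scale (edgeR, adjusted p = 1.57e-06). In the same 3 mice Vcan was higher and Fn1 and F13a1 were lower in every tumor. Mon MHC-II cells made up 44.6% of tumor monocytes on average and 6.48% of Pre-MET monocytes, and Mon Fn1 cells 10.9% and 69.6%. Within Mon Fn1 cells, Fn1 was at 713 ± 254 CPM in Pre-MET lungs (SD, n = 3) and 696 ± 437 CPM in primary tumors (n = 4). F13a1 was at 559 ± 68.7 and 591 ± 261 CPM there, Vcan at 278 ± 48.7 and 810 ± 379 CPM, and Thbs1 at 488 ± 38.0 and 1229 ± 600 CPM. These levels within Mon Fn1 cells were not tested. Tumor monocytes were also deeper, with 6240 UMIs per cell against 1282 in the median sample, and no sequencing batch held both tissues, so batch and tissue cannot be told apart. Several marker lists moved in the same sums without overlap. Neutrophil markers together were at 1204 to 2201 CPM in Pre-MET and 140 to 365 CPM in tumor monocytes, patrolling monocyte markers at 1406 to 1524 and 728 to 1000 CPM, B cell markers at 178 to 198 and 71.0 to 112 CPM, alveolar macrophage markers at 1596 to 2812 and 468 to 1291 CPM, and macrophage markers at 1380 to 1589 and 3541 to 4406 CPM. Platelet markers were at 2.38 to 12.2 and 15.2 to 159 CPM, with Gp9, Gp1ba, Gp1bb, Gp5, Treml1 and Tubb1 at 0 in all tumor sums, and fibroblast markers at 0 to 3.78 and 13.5 to 53.0 CPM. Their part in the results was not tested.

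**Figure D3:**
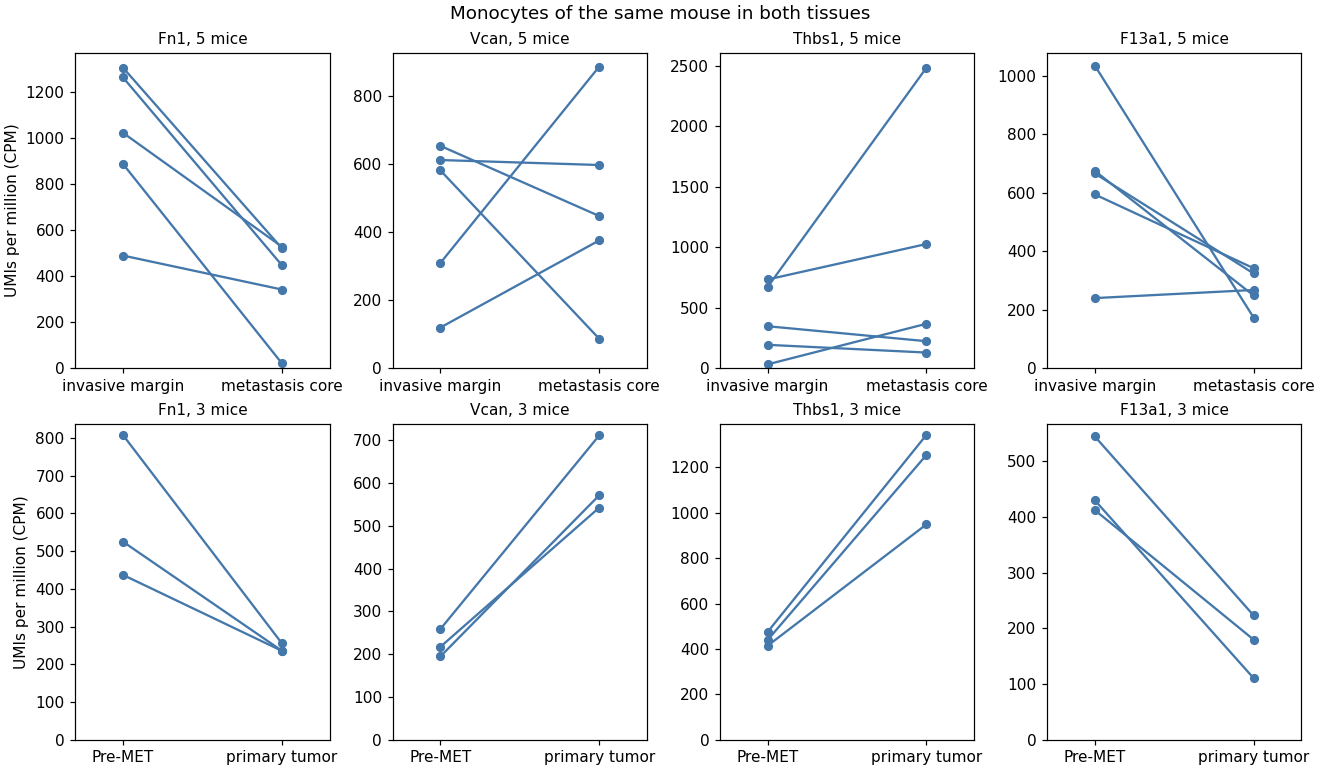
Level of each gene in monocytes (y axis, UMIs per 1000000, linear from 0) of the same mouse in both tissues, with lines joining the values of 1 mouse; the upper row shows 5 mice with invasive margin and metastasis core, the lower row 3 mice with Pre-MET lung and primary tumor. Fn1 is lower in the core in 5 of 5 mice and lower in the primary tumor in 3 of 3 mice.

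Metastasis sections were then compared with distal normal tissue of the same lungs. None of the 4 genes was called in monocytes, where 1.48% of 2098 genes were, all of them higher in the metastasis. Fn1 ranged from 448 to 1365 CPM in metastases (median 769, n = 13) against 611 to 1781 CPM in distal normal tissue, overlapping, at a log2 fold change of -0.40 ± 0.17 (SE; edgeR, adjusted p = 0.429). Fn1 was lower in the metastasis in 11 of 13 mice with both tissues. F13a1 was at -0.26 ± 0.19 (SE; edgeR, adjusted p = 0.844) and lower in 10 of 13 mice, and Vcan at 0.30 ± 0.27 (SE; edgeR, adjusted p = 0.927) and higher in 7 of 13. Thbs1 ranged from 289 to 2393 CPM in metastases (median 512) and from 133 to 855 CPM in distal normal tissue (median 530), at 0.67 ± 0.29 (SE; edgeR, adjusted p = 0.433), and was higher in the metastasis in 9 of 13 mice. With sequencing batch as a term in shared batches, the estimates were -0.42 for Fn1 (adjusted p = 0.121) and 0.92 for Thbs1 (adjusted p = 0.0636, both edgeR). Mon Thbs1 cells were 5.28% of monocytes in distal normal tissue and 25.5% in metastases on average. Within Mon Fn1 cells the estimates were -0.24 ± 0.21 for Fn1 and 0.04 ± 0.24 for Thbs1 (SE), and edgeR called none of 1292 genes, 0% of those tested, with 17 at an unadjusted p below 0.05 and 0 called by DESeq2. The interval of plus or minus 1 SE for Thbs1 in these cells spans both directions.

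Inside a metastasis, the mean of Fn1 in monocytes was 423 ± 204 CPM in the core and 939 ± 326 CPM at the invasive margin (SD), and the call depended on the fit. Fn1 ranged from 490 to 1308 CPM in margin samples (median 957, n = 6) and from 21.7 to 762 CPM in core samples (median 449, n = 13). The groups overlapped, and no core sample reached the margin mean of 939 CPM. The log2 fold change of -1.20 ± 0.35 (SE; edgeR) was not called, at an adjusted p of 0.209, and 0% of 1025 genes were called (0 by edgeR, 84 at an unadjusted p below 0.05, 5 by DESeq2). In the 5 mice with both samples, which include mouse 17, and with the mouse as a block, Fn1 fell by 1.40 in the core. It was lower in 5 of 5 mice and was called in this fit (edgeR, adjusted p = 0.0286), among 58 genes called, whose share of all genes tested is not given here. In mouse 26 Fn1 went from 889 to 21.7 CPM. In mice 26 and 31 Vcan, Thbs1 and F13a1 were lower in the core as well, and in mice 17, 28 and 36 not all of them were. With sequencing batch as a term Fn1 was at -1.10 (edgeR, adjusted p = 0.174). Without mouse 17, whose margin target label is non-metastatic, and without a block, it was -1.16 (edgeR, adjusted p = 0.526). Over all its alternatives the adjusted p ranged from 0.0286 to 0.550.

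Thbs1 had the higher mean in the core, 938 ± 768 CPM against 379 ± 273 CPM, with a wide spread. It ranged from 32.7 to 733 CPM in margin samples (median 320) and from 130 to 2482 CPM in core samples (median 1026), at a log2 fold change of 1.29 ± 0.57 (SE; edgeR, adjusted p = 0.5685). It was higher in the core in 3 of 5 mice with both. Vcan (0.06 ± 0.39, adjusted p = 0.980) and F13a1 (-0.60 ± 0.38, adjusted p = 0.798; both edgeR, SE) were not called and overlapped. Mon Fn1 cells were 60.0% of monocytes in margin and 32.6% in core samples on average, and Mon Thbs1 cells 11.7% and 43.7%. Within Mon Fn1 cells Thbs1 ranged from 0 to 575 CPM in margin samples (n = 5) and from 166 to 2260 CPM in core samples (n = 7), at 1.70 ± 0.54 (SE; edgeR, adjusted p = 0.868), and Fn1 was at -0.94 ± 0.40 (SE; adjusted p = 0.875). Of 538 genes, 0% were called, 26 had an unadjusted p below 0.05 and DESeq2 called 0. Thbs1 was called in cells of at least 1000 UMIs, at 2.09 (edgeR, adjusted p = 0.0179), the lowest over alternatives that reached 1.00.

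**Figure D4:**
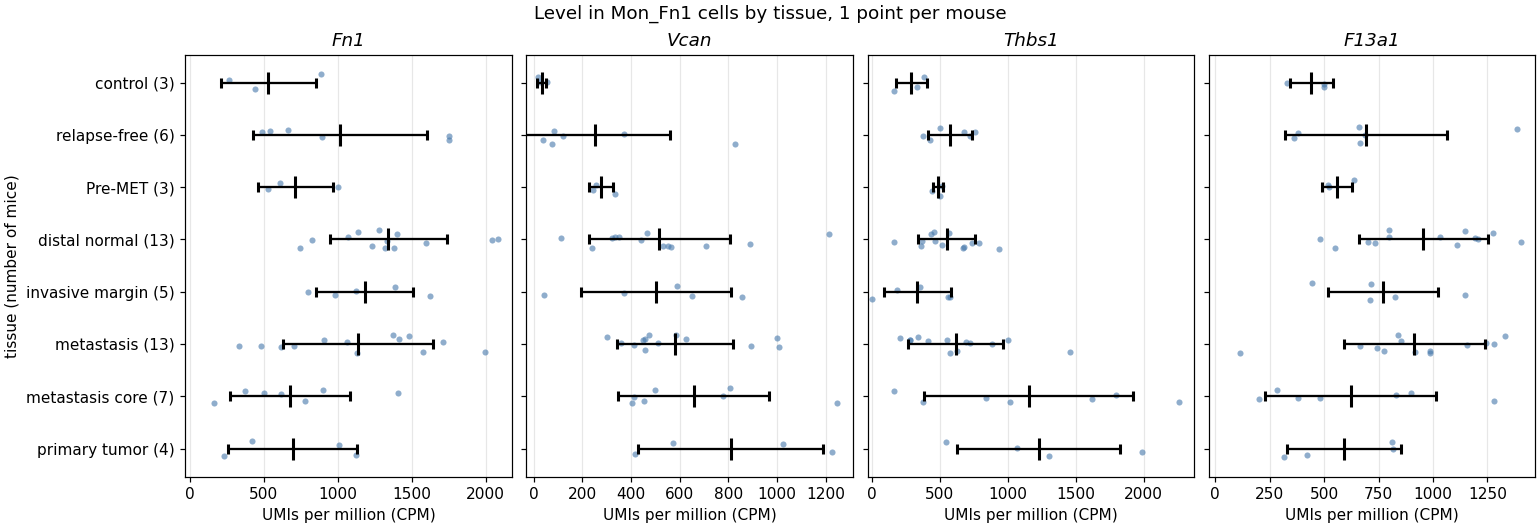
Level of the 4 genes in Mon_Fn1 cells alone (x axis, UMIs per 1000000, linear) by tissue (y axis, number of mice in brackets); points are mice, the vertical bar is the mean and the whiskers are 1 SD. Vcan in the 3 control mice (18.5 to 54.8 CPM) lies below all Pre-MET mice, and Fn1 has its highest mean in distal normal tissue (1341 CPM).

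Between primary tumor and metastasis core, none of the 4 genes was called in monocytes, against 1.47% of 1835 genes (0.926% higher and 0.545% lower in the core). F13a1 was at a median of 275 CPM in the core and 175 CPM in the primary tumor, with overlap, at a log2 fold change of 1.05 ± 0.40 (SE; edgeR, adjusted p = 0.218). Fn1 (0.80 ± 0.40, adjusted p = 0.433), Vcan (-0.35 ± 0.37, adjusted p = 0.778) and Thbs1 (-0.02 ± 0.55, adjusted p = 0.998; all edgeR, SE) overlapped as well. The median sample had 6240 UMIs per monocyte in primary tumors and 1067 in the core. Mon MHC-II cells were 44.6% and 11.8% of monocytes on average. Tumor mice 9, 10 and 38 were in a sequencing batch without core samples, and core cells were sorted after photoactivation. The part of depth, makeup, batch and sort in the results was not tested. In Mon Thbs1 cells, 1.24% of 2345 genes were called (0.682% higher and 0.554% lower in the core) and none of the 4. Thbs1 there ranged from 441 to 3626 CPM in primary tumors (n = 4) and from 161 to 2644 CPM in cores (n = 8), at -0.57 ± 0.50 (SE; edgeR, adjusted p = 0.635), and Vcan was at -0.86 ± 0.41 (SE; adjusted p = 0.341).

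In macrophages Vcan and F13a1 were at or near 0 in distal normal tissue and present in metastases, while Fn1 and Thbs1 were not called. Alveolar macrophages made up 63.6% of macrophages in distal normal tissue and 7.65% in metastases on average, and Mac Isg20 cells 7.19% and 39.2%. Platelet markers together had a median of 93.4 CPM (0 to 423) in distal normal and 678 CPM (355 to 2037) in metastasis macrophages, with Gp9, Gp1ba, Gp1bb, Gp5, Gp6, Treml1, Nrgn and Tubb1 at 0 in both. Alveolar macrophage markers ranged from 6454 to 21792 CPM and from 1101 to 6104 CPM, and the part of either list in the results was not tested. Vcan had 0 UMIs in the 6 distal normal sums, which hold 134776 UMIs, and 157 UMIs in the 9 metastasis sums, with 8 of 9 above 0. Taking 3 UMIs over the group as the limit of a count of 0, its pooled level was at least 5.29-fold higher in metastases. F13a1 was at 0 in 5 of 6 distal normal sums, with 3 UMIs in all, and ranged from 34.7 to 463 CPM in metastases (median 154). Neither gene passed the filter on low counts, so neither was tested here, and 9.54% of 1289 genes were called, 6.90% higher and 2.64% lower in metastases. Fn1 ranged from 0 to 388 CPM in distal normal tissue (median 142) and from 77.1 to 723 CPM in metastases (median 269), at 0.87 ± 0.52 (SE; edgeR, adjusted p = 0.347). Thbs1 had a median of 35.3 CPM in distal normal tissue, where mouse 23 stood apart at 1076 CPM, and 432 CPM in metastases, at 1.31 ± 0.73 (SE; edgeR, adjusted p = 0.296). Without mouse 23 it was 2.97 (edgeR, adjusted p = 0.0177), over alternatives from 0.0126 to 0.647. In the 5 mice with both tissues, F13a1 was higher in the metastasis in 5, Vcan in 4 with 0 lower, Thbs1 in 4 and Fn1 in 3.

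Macrophages had a higher mean of Fn1 at the invasive margin, 765 ± 515 CPM, than in the core, 212 ± 177 CPM (SD). Fn1 was at 229, 585, 791 and 1454 CPM in the 4 margin sums and ranged from 0 to 464 CPM in the 10 core sums (median 173), overlapping only through margin mouse 36. The log2 fold change was -1.83 ± 0.53 (SE; edgeR, adjusted p = 0.171), and 0% of 1743 genes were called (0 by edgeR, 178 at an unadjusted p below 0.05, 39 by DESeq2). DESeq2 called Fn1, at -1.90 (adjusted p = 0.0443), and so did edgeR on sums of at least 5 cells (adjusted p = 0.0448), over alternatives from 0.0443 to 1.00. Only 2 mice had both sums. From margin to core, Fn1 went from 585 to 85.0 CPM in mouse 17, whose margin target label is non-metastatic, and from 229 to 254 CPM in mouse 36. Vcan (2.17 ± 0.98, adjusted p = 0.432), F13a1 (1.12 ± 0.59, adjusted p = 0.551) and Thbs1 (0.91 ± 0.54, adjusted p = 0.589; all edgeR, SE) were not called. Vcan passed the filter only through the core, and its direction turned with the mouse as a block (-0.0710), where it went from 94.4 to 129 CPM in mouse 17 and from 36.2 to 16.6 CPM in mouse 36. Regulatory macrophages made up 79.4% of margin and 23.5% of core macrophages on average, and within them Fn1 was at 747 ± 582 CPM in the margin (n = 4), 332 ± 367 CPM in metastases (n = 7) and 208 ± 188 CPM in the core (n = 3). These means come from largely different mice. Mouse 36 alone gave both margin and core sums of these cells, and there Fn1 was higher in the core, at 365 CPM against 104 CPM.

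**Figure D5:**
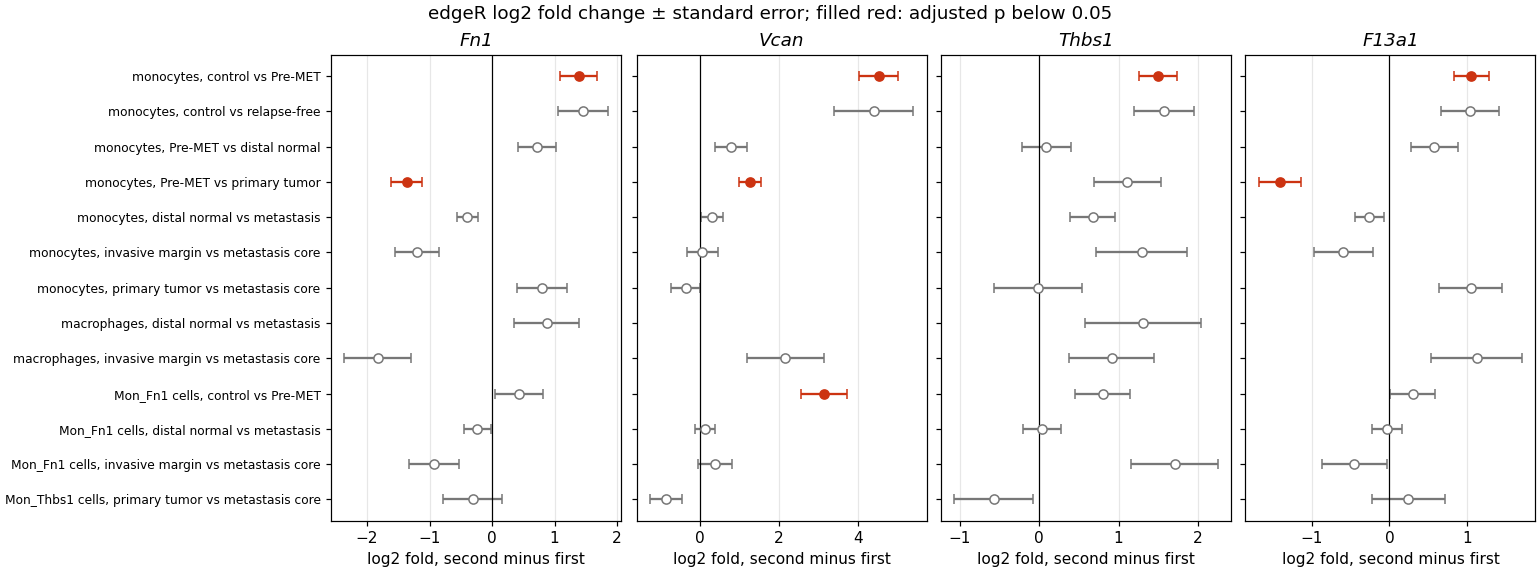
Log2 fold change of each gene (x axis, second group minus first; whiskers are 1 SE from edgeR) in 13 comparisons (y axis), with filled red points for an adjusted p below 0.05 and open grey points for the rest; Vcan and F13a1 have no value in macrophages of distal normal tissue against metastasis. Calls lie in control against Pre-MET and Pre-MET against primary tumor, and Fn1 is below 0 in each of the 3 comparisons of margin and core.

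Receptors, partners and remodelling enzymes of these genes were read in 7 lists in the same fits. From control to Pre-MET monocytes, where 2.30% of all genes were called higher and 2.02% lower, the lists had 2 to 10 genes tested each, so their counts of called genes are a description. Batch and group cannot be told apart there, and the makeup of monocytes differed as given above. Of 13 integrins and other fibronectin receptors, a list that also holds leukocyte integrins with other main ligands, 10 were tested, and Itgb7, an integrin subunit of leukocyte homing, rose by 0.93 ± 0.21 on the log2 scale (SE; edgeR, adjusted p = 0.0175) and Itgax, the integrin of CD11c, fell by 2.69 (SE 0.71, adjusted p = 0.0413), having passed the filter only through control lungs. Of 10 thrombospondin-1 receptors and ligands 4 were tested, and Cd36, the scavenger receptor of thrombospondin-1, fell by 2.95 (SE 0.33; edgeR, adjusted p = 8.36e-05), from a mean of 365 to 47.2 CPM. Among 14 transglutaminases and coagulation factors, 4 tested, F10 rose by 1.83 ± 0.34 (SE; adjusted p = 0.00526) and Tgm2, the tissue transglutaminase, fell by 1.96 (SE 0.45; edgeR, adjusted p = 0.0191).

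Among 20 matrix proteases and inhibitors, 8 tested, Mmp8, a collagenase, rose by 2.77 ± 0.60 (SE; edgeR, adjusted p = 0.0138), having passed the filter only through Pre-MET, and the cathepsin genes Ctss and Ctsb fell by 0.63 and 0.66 (SE 0.15 and 0.16). Among 22 other matrix and matricellular genes, 3 of 6 tested were called higher and 1 lower, beside the same 2.30% and 2.02% of all genes. Lgals1 rose by 2.01 ± 0.19, Tgfbi by 1.39 ± 0.25 and Lgals3 by 1.01 ± 0.18 (SE), while Srgn, the granule proteoglycan, fell by 0.71 (SE 0.18; edgeR, adjusted p = 0.0303). Their median log2 fold change was 0.87, against -0.02 over all 4953 genes, and the medians of the other lists lay between -0.48 and 0.68. The plasminogen system had 2 of 9 genes tested and none called. In Mon Fn1 cells Lgals1 was the only called gene of the 7 lists, at 1.33 ± 0.23 (SE; edgeR, adjusted p = 0.0200), beside 0.336% of all 3273 genes called. From control to relapse-free lungs, Cd36 was the only one called, and it fell by 2.07 (SE 0.37; edgeR, adjusted p = 0.0124), beside 0.0819% of all 4884 genes called. Batch and makeup differed there as given above, and their part was not tested.

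From Pre-MET lung to primary tumor, 6 of 13 tested matrix proteases and inhibitors were called higher and 0 lower, beside 11.7% higher and 13.1% lower of all 7141 genes. Mmp12, Mmp13, Mmp14 and Adam8 passed the filter on low counts, here 18.9 CPM in 3 sums, only through the tumor, so the count of 6 supports nothing about the list. Mmp12, the macrophage elastase, had 0 UMIs in Pre-MET monocytes and 955 in tumor monocytes, at least 132-fold higher per 1000000 UMIs with 3 UMIs over the group as the limit. Mmp14, a membrane-bound metalloproteinase, had 0 and 513 UMIs, at least 71.0-fold higher on the same limit. Adam8 rose by 4.98 ± 0.44 (SE; edgeR, adjusted p = 2.26e-07) and Ctsl, a cathepsin gene, by 2.19 ± 0.36 (SE; adjusted p = 0.000185).

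Other matrix genes had 6 of 8 tested called higher and 0 lower in the tumor, beside 11.7% and 13.1% of all genes. Spp1 passed the filter only through the tumor and Ecm1 with 1 of 3 Pre-MET sums above it, so this count supports nothing about the list either. Spp1, osteopontin, rose by 7.24 ± 0.59 (SE; edgeR, adjusted p = 1.05e-07) from 3.89 to 576 CPM, Tgfbi by 1.59 ± 0.22, Ecm1 by 3.49 ± 0.61 and Emilin2 by 0.99 ± 0.25 (SE). The integrins and other fibronectin receptors had 4 called higher and 3 lower of 12 tested, beside the same 11.7% and 13.1%, and 3 of the 4, Itga5, Itgax and Sdc4, passed the filter only through the tumor, so nothing is read from the count. Sdc4, a heparan sulfate proteoglycan that binds fibronectin, had 0 UMIs in Pre-MET monocytes and 690 in tumor monocytes, at least 95.5-fold higher with the same limit. Itgax rose by 3.60 ± 0.47 (SE; edgeR, adjusted p = 1.81e-05), whereas Itgb7 fell by 1.80 (SE 0.24) and Itgal by 1.43 (SE 0.26).

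Of 5 tested transglutaminases and coagulation factors, Tgm2 rose by 1.92 ± 0.37 and F7 by 3.64 ± 1.02 (SE) from 4 UMIs in all Pre-MET monocytes, and Thbd, thrombomodulin, fell by 3.11 (SE 0.48; edgeR, adjusted p = 0.000106) and F5 by 2.41 (SE 0.60). F7 passed the filter only through the tumor and F5 only through Pre-MET. Thbd had 3 Pre-MET sums and 1 tumor sum above the filter, so it was tested only because of its level in Pre-MET. Tlr2, which binds versican, rose by 1.32 ± 0.32 (SE; edgeR, adjusted p = 0.00470). Lrp1, an endocytic receptor of thrombospondin-1, rose by 1.00 ± 0.29 (SE; edgeR, adjusted p = 0.0163), and Plgrkt, a plasminogen receptor gene, rose by 1.11 ± 0.34 (SE; adjusted p = 0.0220). Depth per cell, batch and makeup differed between these tissues as given above for the 4 genes.

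The other comparisons with calls in the lists had 1.48% (distal normal tissue to metastasis) and 1.47% (primary tumor to core) of all genes called in monocytes and 9.54% in macrophages of distal normal tissue and metastasis. In monocytes Srgn rose by 0.78 ± 0.20 from distal normal tissue to metastasis (SE; edgeR, adjusted p = 0.0282), and Mmp12 and Tgfbi fell from primary tumor to core by 2.15 (SE 0.51) and 1.16 (SE 0.26; edgeR, adjusted p = 0.0302 and 0.0187). From primary tumor to core, 0 to 15 genes were called without single primary tumor mice, so neither call held in every such fit. Depth, makeup, batch and sort differed there as given above. In macrophages of metastases Mmp12 rose by 2.54 ± 0.59 (SE; edgeR, adjusted p = 0.00751), Itgb5 by 2.15 ± 0.64, Itgam by 2.12 ± 0.65, Srgn by 1.35 ± 0.34 and Lgals3 by 1.08 ± 0.30 (SE) against distal normal tissue. Mmp12 and Itgb5 passed the filter there only through metastases, and Itgam with 1 distal normal and 7 metastasis sums above it. Cd44, the hyaluronan receptor, fell there by 1.54 (SE 0.31; edgeR, adjusted p = 0.00253). The makeup of macrophages differed between these tissues as given above, and its part in the calls was not tested. No gene of the 7 lists was called between Pre-MET and distal normal monocytes, where 4.52% of all genes were, or from primary tumor to core within Mon Thbs1 cells, where 1.24% were. None was called either between margin and core in monocytes, macrophages or Mon Fn1 cells, or between distal normal tissue and metastasis in Mon Fn1 cells, but there 0% of all genes were called, which says nothing about the lists.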

How the data were processed

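Per the paper's methods, the authors mapped 3′ SPID-seq reads to mm10 with HISAT after demultiplexing, for which the submitters' processing notes name bcl2fastq 2.15.0.4, excluded reads with several mapping positions, assigned reads to exons and collapsed them to UMIs, and they discarded cells with fewer than 500 UMIs. What the authors deposited are whole-number UMI counts without normalization, 1 column a well, and their annotation gives each retained well a subpopulation. Doublets were gated out at the sort and no doublet caller was run here. Of 56240 wells with a cell on 148 plates, 24020 were annotated, and 595 erythrocyte, tumor and outlier cells were left out of comparisons. Immune cells had a median of 1133 UMIs. Among annotated cells 0 well identifiers occurred on more than 1 plate.

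Replicates are mice. Counts were summed per mouse, tissue and subpopulation or lineage (at least 10 cells), and tested on the whole gene table with edgeR 4.0.16 (R 4.3.3; TMM, filterByExpr, two-sided quasi-likelihood test, Benjamini-Hochberg, threshold 0.05). Samples of 1 group are different mice. The printed SE is the log2 fold change divided by the square root of F. The script was tested on simulated data. Alternatives were DESeq2 1.42.0, its size factors in edgeR, no filter, other cell minimums, cells of at least 1000 UMIs, a mouse block, batch terms and leaving out mice. Same-numbered samples come from the same mouse, and deviations from group means correlated at a mean r of 0.28 between distal normal and metastasis monocytes of the same mouse (13 of 13 above 0.1) and -0.02 between different mice; for margin and core they were 0.32 and -0.02. The study tests single cells, which are not replicates, so sums were used.

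The 4 genes and the lists were chosen with earlier results of these data known. Named besides them are, from each list, at most the 4 called genes with the smallest adjusted p, and 3 genes most like each gene by Spearman's rho of log2(CPM + 10), at a mean of at least 50 CPM. Of the genes so chosen, 1 is not reported here. Coordinates are from GENCODE vM21 and promoters from RefSeq. Depth is the number of UMIs in each sum. A count of 0 is limited by 3 UMIs over the group, which covers counting error only.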

Additional observations from a re-analysis of the deposited data

Results flagged for a closer look

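Of 63 sets of 4 to 10 mice examined for a value far from the rest, 5 held one by Dixon's criterion, where chance gives about 1 in 20. F13a1 in Mon Fn1 cells of relapse-free lungs was 1387 CPM in mouse 35, with the nearest of the other 5 mice at 687 CPM. F13a1 in Mon Thbs1 cells of the metastasis core was 806 CPM in mouse 30, with the nearest at 355.5 CPM (n = 8). In distal normal macrophages (n = 6), Thbs1 was 1076 CPM in mouse 23, next to 170 CPM, and F13a1 was 85.0 CPM in mouse 17, where the other mice were at 0. F13a1 in macrophages of relapse-free lungs was 286 CPM in mouse 11, next to 9.13 CPM (n = 4).

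Cells that the authors labelled outlier, erythrocyte or tumor entered no comparison and held some of the genes above their mean in control monocytes. Outlier cells held 1368 CPM of Fn1, 1265 CPM of Thbs1 and 43.1 CPM of Vcan on average (3 sums). Tumor cells held 199 CPM of Vcan (2 sums) and erythrocytes 25.6 CPM of Vcan (4 sums).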

How the results depend on the processing

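For the 4 genes, 50 results gave 568 alternative values, of which 524 kept direction and side of the threshold, 11 lost a call, 15 gained one and 18 changed sign, none of them called in either setting. Of the log2 fold changes that changed sign, Thbs1 from Pre-MET to distal normal monocytes (0.09) gave -0.0217 with no filter and -0.0286 to 0.0855 without single Pre-MET mice, and Vcan from margin to core monocytes (0.06) gave -0.0912 to 0.279 without single margin mice (below 0 without mice 33 and 36). Thbs1 from primary tumor to core monocytes (-0.016) gave 0.0269 with DESeq2's size factors, 0.141 with at least 20 cells, 0.0718 with cells of at least 1000 UMIs and -0.398 to 0.226 without single primary tumor mice (above 0 without mice 8 and 9). Vcan from margin to core macrophages (2.17) gave -0.0710 with the mouse block. From distal normal tissue to metastasis in Mon Fn1 cells, Thbs1 (0.0362) gave -0.0346 with no filter, -0.0386 with at least 20 cells, -0.00807 with cells of at least 1000 UMIs and -0.00767 with the mouse block, and F13a1 (-0.0349) gave 0.0363, 0.0517 and 0.0244 under the last 3. Fn1 from primary tumor to core in Mon Thbs1 cells (-0.31) gave 0.134 with at least 20 cells. Vcan and F13a1 in macrophages of distal normal tissue and metastasis could not be fitted in the main setting. The counts of called genes moved more, as follows, and the cause was not tested. Control against Pre-MET monocytes (214) gave 127 with cells of at least 1000 UMIs and 87 to 138 without single mice. Control against relapse-free (4) gave 25 with no filter, 2 with cells of at least 1000 UMIs and 1 to 9 without single mice. Pre-MET against distal normal (190) gave 502 with no filter and 96 to 124 without single Pre-MET mice, and Pre-MET against primary tumor (1770) 1364 to 2031 without single mice. Distal normal against metastasis in monocytes (31) gave 80 with DESeq2, 322 with no filter, 15 with cells of at least 1000 UMIs, 79 with the mouse as a block (pairing) and 67 with a batch term. Margin against core in monocytes (0) gave 2 with DESeq2's size factors, 5 with DESeq2, 91 with no filter, 3 and 2 with at least 5 and 20 cells a sum, 2 with cells of at least 1000 UMIs, 58 with the mouse block, 4 with a batch term and 0 to 3 without single margin mice. Primary tumor against core (27) gave 138 with DESeq2, 320 with no filter, 43 with at least 20 cells and 0 to 15 without single primary tumor mice. In macrophages, distal normal against metastasis (123) gave 256 with DESeq2, 461 with no filter, 59 with cells of at least 1000 UMIs and 71 to 191 without single distal normal mice, and margin against core (0) gave 39 with DESeq2, 17 with no filter, 3 with at least 5 cells and 0 to 1 without single margin mice. In Mon Fn1 cells, control against Pre-MET (11) gave 66 with DESeq2, 67 with no filter, 7 with cells of at least 1000 UMIs and 3 to 23 without single mice, and margin against core (0) gave 1 with no filter, 1 with at least 20 cells, 6 with cells of at least 1000 UMIs, 3 with a batch term and 0 without each of the 5 margin mice. In Mon Thbs1 cells, primary tumor against core (29) gave 80 with DESeq2, 51 with no filter, 19 and 71 with at least 5 and 20 cells, 14 with cells of at least 1000 UMIs and 0 to 28 without single primary tumor mice. The fits with the mouse block also keep only mice with both tissues. They changed the calls of Thbs1 between Pre-MET and primary tumor and of Fn1 between margin and core monocytes, and no other call of the 4 genes. For Thbs1 this left out tumor mouse 38, and leaving out that mouse without a block gave the call as well, so the change cannot be credited to the block. The mean of Thbs1 in Mac Gpnmb cells was 415 CPM with at least 5 cells a sum, against 225 CPM with at least 10. Without thinning, shares of cells with a UMI in Mon Fn1 cells were 48.7% for Fn1, 30.4% for Vcan, 35.0% for Thbs1 and 43.5% for F13a1, and in Mon Thbs1 cells 30.6% for Fn1, 38.3% for Vcan and 25.3% for F13a1. Leaving out single mice from groups of 6 was added after seeing the data, and mice of larger groups were not left out. Levels are limited by depth where a sum holds few UMIs, as for Vcan in control monocytes (5 UMIs) and in distal normal macrophages (0 of 134776 UMIs), and where an arm had 3 mice.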
